A study of Mus musculus with 18 samples.

Results

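The 20 codons of alanine, glycine, proline, threonine and valine were compared under the ribosomal A site in brains of wild-type (WT) and Ftsj1 knockout (KO) mice. They are the rows of the deposited codon table annotated with one of these 5 amino acids, and make up 20 of its 64 rows and 20 of the 61 sense codons, the other 3 rows being stop codons. The animals were 3 WT and 3 Ftsj1 KO male C57BL/6 mice aged 8 weeks with no other treatment. The labels do not describe the knockout allele, so whether it removes the gene in all cells or was made in 1 founder line is not given in the sources used here. Ribosome profiling of frozen, lysed brain gave 1 MiSeq library per mouse, for which the authors deposited counts of footprints by the codon in the A site, where the ribosome takes up the next charged tRNA.

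Each of these amino acids is encoded by a four-codon box, in which the first 2 bases fix the amino acid and the third may be any base. Cells read such a box with few tRNAs, because the first base of the anticodon can pair with several bases at the third position. For alanine, proline, threonine and valine, mammals use tRNAs whose first anticodon base is changed from adenosine to inosine, which pairs with T, C or A, while the glycine codons ending in T and C are read by a tRNA with G at that position. FTSJ1 methylates the ribose of bases in the anticodon loop of tRNA-Phe and of some other tRNAs. Longer stays of ribosomes on a codon raise its count in the A site, as does more frequent use of the codon in the translated mRNAs.

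The codons are shown 5′ to 3′ in DNA letters because the comparison turns on the third base of each, which is in capitals:
Ala: gcT with thymine last, gcC with cytosine last, gcA with adenine last, gcG with guanine last
Gly: ggT with thymine last, ggC with cytosine last, ggA with adenine last, ggG with guanine last
Pro: ccT with thymine last, ccC with cytosine last, ccA with adenine last, ccG with guanine last
Thr: acT with thymine last, acC with cytosine last, acA with adenine last, acG with guanine last
Val: gtT with thymine last, gtC with cytosine last, gtA with adenine last, gtG with guanine last

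In the RefSeq annotation of GRCm38, alanine has 13 tRNA genes with the anticodon AGC, 11 with TGC and 9 with CGC. Threonine has 9 with AGT, 4 with TGT and 4 with CGT, and proline has 6 with AGG, 7 with TGG and 3 with CGG. Valine has 8 with AAC, 3 with TAC and 11 with CAC. Glycine is the exception, with 14 genes for the anticodon GCC, 7 for TCC, 6 for CCC and 1 for ACC. GGC is thus the codon among the 20 whose own base-paired anticodon has the most tRNA genes in that table.

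The libraries held 48481 to 70947 counts of sense codons, of which 15025 to 22105 lay on the 20 codons. Single codons had from 265 (ACG in KO mouse 2) to 1774 counts (GCC in WT mouse 1). Codon counts of WT mice 1 and 2 (chi-square p = 0.0928) and of KO mice 1 and 2 (chi-square p = 0.213) did not differ beyond sampling noise, whereas the other 4 pairs of the same genotype did (chi-square p from 4.04e-05 to 0.0338). Since the labels number them as different animals, each counts as 1 mouse here, and calls are also given with such pairs summed into 1 sample. Both transcript accessions of Ftsj1 had a count of 0 in all 12 HiSeq libraries of the same mice, WT and KO alike, so the knockout could not be checked. The tissue label was checked in the ribosome-contained HiSeq libraries: the neuronal marker Nefl was at 3635 to 4332 CPM (counts normalized to equal library totals), the astrocyte markers Aldoc at 144 to 207 and Gfap at 19.5 to 38.5 CPM, and the 4 liver and muscle markers at 3.25 CPM or less. The markers Snap25, Syt1, Aqp4 and Mobp were at 4.55 CPM or less there, Camk2a was listed at 0 in all libraries, and Mbp was at 4.37 to 11.96 CPM.

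Alanine and glycine codons took smaller shares of the A-site footprints in KO than in WT brains. Alanine codons together fell from 7.08% ± 0.105 of sense codons in WT to 6.74% ± 0.0229 in KO, and glycine codons from 7.40% ± 0.0458 to 7.07% ± 0.0333 (SD, n = 3 each). Among the single codons, GCC for alanine and GGC for glycine fell, and none of the 20 rose past the test. Proline codons differed between genotypes by less than the spread between mice, and the values for threonine and valine, higher and lower in KO, did not pass. Whether the share of these codons differs without Ftsj1 was tested with edgeR (quasi-likelihood) over all 61 sense codons, or all 20 amino acids, with Benjamini-Hochberg adjustment. These 4 calls rest on that fit: DESeq2, limma, leaving out the Phe codons and summing mice 1 and 2 of each genotype each called 0 of the 20 codons and 0 of the 5 amino acids, and leaving out certain single libraries also ended each call. The 10% of the 20 codons called was close to the 8.2% of all 61 sense codons.

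The summed alanine codons took 7.01%, 7.03% and 7.20% of sense codons in WT mice 1 to 3 and 6.77%, 6.73% and 6.73% in KO mice 1 to 3. All KO libraries were below all WT libraries, and the KO libraries lay closer together than the WT libraries. The log2 fold change of KO over WT was -0.07 (SE 0.0227, adjusted p = 0.0297, edgeR), a fold of 0.953 with a 95% interval of 0.924 to 0.983. Here and below, the SE was worked out from the fold change and the F statistic of the test. Intervals on fold changes use a normal approximation with this SE and can be narrower than the p implies. For glycine the shares were 7.39%, 7.45% and 7.36% in WT and 7.05%, 7.05% and 7.11% in KO. Again the groups did not overlap, with a gap wider than the range within either genotype. The log2 fold change was -0.07 (SE 0.0246, adjusted p = 0.0464, edgeR), a fold of 0.956 (95% interval 0.924 to 0.988).

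Threonine codons took 4.74%, 4.65% and 4.61% of sense codons in WT and 4.78%, 4.94% and 4.84% in KO. The KO libraries were all higher, by a small margin between KO mouse 1 and WT mouse 1, and the log2 fold change of 0.05 (SE 0.0255) did not pass (adjusted p = 0.108, edgeR), and the adjusted p ranged from 0.0382 without KO mouse 1 to 0.263 without KO mouse 2 when single libraries were left out. Valine codons took 5.19%, 5.39% and 5.42% in WT and 4.91%, 5.10% and 5.34% in KO, where KO mouse 3 lay within the WT range, and the log2 fold change was -0.06 (SE 0.0251, adjusted p = 0.0980, edgeR). Leaving out single libraries gave -0.09 without KO mouse 3 (adjusted p = 0.0360, edgeR) and -0.08 without WT mouse 1 (0.0418), which passed, but -0.03 without KO mouse 1 (0.624), and the adjusted p without WT mouse 2 was 0.416. Proline codons took 6.83%, 6.85% and 7.10% in WT and 6.88%, 7.17% and 6.78% in KO. These groups overlapped fully, and the fold of 1.00 had a 95% interval of 0.971 to 1.03 (adjusted p = 0.953, edgeR).

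Of the 5 amino acids, 2 passed (40%), against 20% of all 20 amino acids tested. At an unadjusted p under 0.05 there were 4 of 5 (80%) against 40%, and KO and WT libraries did not overlap in 3 of 5 (60%) against 30%. The 20 include these 5. Of the other 15, 2 passed (13.3%), aspartate lower in KO (log2 fold change -0.07, adjusted p = 0.0461, edgeR) and Phe higher. The calls of alanine and glycine were close to the threshold. Alanine was lost without WT mouse 2 (adjusted p = 0.0529, edgeR) or WT mouse 3 (0.0880), and glycine without WT mouse 1 (0.0846), WT mouse 2 (0.0529) or WT mouse 3 (0.0530), while both kept a negative sign with each library left out. With the Phe codons left out of the totals and of the fit, alanine was at -0.06 and glycine at -0.05 (adjusted p = 0.0703 each, edgeR), and with mice 1 and 2 of each genotype as 1 sample neither passed (adjusted p = 0.0808 each, edgeR). DESeq2 (adjusted p = 0.147 each) and limma on log2 shares (0.0688 each) did not call them. Alanine was also lost after thinning all libraries to the smallest (0.0851), and glycine after thinning (0.115), with TMM scaling (0.122) and with stop codons included (0.0549).

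Shares sum to 100% within a library, so they are relative. The 2 Phe codons rose from 2.47% ± 0.101 to 3.31% ± 0.0496 of sense codons, by 0.843 percentage points. The 20 codons took 31.2%, 31.4% and 31.7% of sense codons in WT and 30.4%, 31.0% and 30.8% in KO. All KO libraries were lower, with a mean difference of -0.685 percentage points (exact two-sided permutation p = 0.1, the smallest that 3 mice against 3 can give, adjusted p = 0.25 over 5 values). Of the sense codons other than those of Phe, the 20 took a share that differed by -0.428 points (exact permutation p = 0.2).

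GCC, the most frequent alanine codon, took 2.50%, 2.58% and 2.54% of sense codons in WT mice 1 to 3 and 2.44%, 2.32% and 2.26% in KO mice 1 to 3. The KO libraries were all lower, with KO mouse 1 nearest to WT. Counting error alone gave Wilson 95% intervals of 2.39 to 2.62 in WT mouse 1 and 2.32 to 2.57 in KO mouse 1, so that these libraries could not be told apart singly. As a group, the log2 fold change was -0.12 (SE 0.0350, adjusted p = 0.0203, edgeR), a fold of 0.921 (95% interval 0.878 to 0.966). GCT, the alanine codon whose anticodon AGC has the most genes, took 2.01%, 1.86% and 1.94% in WT and 1.71%, 1.75% and 1.93% in KO. KO mouse 3 lay within the WT range, and the log2 fold change of -0.11 (SE 0.0434) did not pass (adjusted p = 0.114, edgeR). Without KO mouse 3, GCT was at -0.17 and passed (adjusted p = 0.00407, edgeR), whereas it was at -0.07 without KO mouse 1 (0.478), at -0.08 without WT mouse 1 (0.404) and at -0.09 without KO mouse 2 (0.408).

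The other alanine codons differed less. GCA took 1.68%, 1.74% and 1.79% in WT and 1.77%, 1.82% and 1.72% in KO, with overlapping groups and a log2 fold change of 0.03 (adjusted p = 0.812, edgeR). GCG, the least frequent, took 0.809%, 0.859% and 0.927% in WT and 0.847%, 0.844% and 0.819% in KO, all 3 KO values inside the WT range (-0.05, adjusted p = 0.749, edgeR).

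GGC, the glycine codon paired with the anticodon GCC, took 2.09%, 2.02% and 2.04% of sense codons in WT and 1.79%, 1.84% and 1.94% in KO. The KO libraries were all lower, with KO mouse 3 nearest to WT. Wilson 95% intervals were 1.99 to 2.19 in WT mouse 1 and 1.69 to 1.91 in KO mouse 1. The log2 fold change was -0.14 (SE 0.0392, adjusted p = 0.0148, edgeR), a fold of 0.907 (95% interval 0.860 to 0.956) and the largest of the 20 in size. GGA, the most frequent glycine codon, took 2.38%, 2.44% and 2.38% in WT and 2.34%, 2.37% and 2.25% in KO. These groups did not overlap either, but the log2 fold change of -0.05 did not pass (adjusted p = 0.380, edgeR). GGT, the least frequent, took 1.16%, 1.19% and 1.18% in WT and 1.19%, 1.08% and 1.25% in KO, where the KO libraries spread to both sides of WT, and its log2 fold change was 0.00 (95% interval -0.09 to 0.10). GGG went from 1.78% ± 0.0266 to 1.73% ± 0.0474 (-0.04, adjusted p = 0.573, edgeR).

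GTC was the valine codon with the lowest unadjusted p. It took 1.37%, 1.37% and 1.37% of sense codons in WT and 1.31%, 1.21% and 1.27% in KO. The WT libraries were nearly equal and the KO libraries all lower, and the log2 fold change of -0.11 (SE 0.0411) did not pass (adjusted p = 0.0762, edgeR), and the adjusted p ranged from 0.0497 without KO mouse 1 to 0.313 without KO mouse 2 when single libraries were left out. GTG, the most frequent, took 2.31%, 2.50% and 2.50% in WT and 2.17%, 2.36% and 2.50% in KO, with overlapping groups (-0.05, adjusted p = 0.467, edgeR). GTA, the least frequent, took 0.626%, 0.602% and 0.602% in WT and 0.575%, 0.592% and 0.638% in KO, so that the KO libraries spread beyond both ends of WT (-0.02, adjusted p = 0.940, edgeR). GTT went from 0.918% ± 0.0348 to 0.906% ± 0.0469 (-0.02, adjusted p = 0.940, edgeR).

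For proline, CCA, the most frequent codon, took 2.06%, 2.06% and 2.04% in WT and 2.07%, 2.22% and 2.14% in KO. The KO libraries were all higher, KO mouse 1 by little, and the log2 fold change of 0.06 did not pass (adjusted p = 0.339, edgeR). CCG, the least frequent, took 0.891%, 0.918% and 0.946% in WT and 0.857%, 0.885% and 0.866% in KO. Its KO libraries were all lower, again by a small margin, and its log2 fold change of -0.08 (SE 0.0569) did not pass (adjusted p = 0.414, edgeR). CCC went from 1.97% ± 0.0387 to 1.99% ± 0.124 and CCT from 1.99% ± 0.102 to 1.94% ± 0.0335, with overlapping groups in both.

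For threonine, ACC, the most frequent codon, took 1.69%, 1.57% and 1.67% in WT and 1.73%, 1.73% and 1.75% in KO. All KO libraries were higher and nearly equal, and the log2 fold change of 0.08 (SE 0.0420), the highest of the 20, did not pass (adjusted p = 0.231, edgeR). ACC thus ends in C like GCC, GGC and GTC but was on the other side of WT. ACT took 1.11%, 1.11% and 1.07% in WT and 1.06%, 1.14% and 1.10% in KO, with overlapping groups and a log2 fold change of -0.00 (95% interval -0.10 to 0.10). ACG, the least frequent of the 20, took 0.503%, 0.506% and 0.524% in WT and 0.467%, 0.547% and 0.582% in KO, the KO libraries spreading to both sides of WT. ACA went from 1.42% ± 0.0592 to 1.48% ± 0.0673 (0.06, adjusted p = 0.380, edgeR).

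Over the 20 codons, 2 fell and 0 rose, which is 10% called, against 8.2% of all 61 sense codons. At an unadjusted p under 0.05 there were 4 of 20 (20%), all lower in KO, against 23% of the 61. KO and WT libraries did not overlap in 7 of 20 (35%), 5 lower and 2 higher in KO, against 26.2% of the 61. Of the log2 fold changes, 13 of 20 were negative with a median of -0.03 and a range of -0.14 to 0.08, and over the 61 sense codons 32 were negative with a median of -0.00. Grouped by the third base, the 5 codons ending in C had the lowest median, -0.11, with 2 called. Of these 5, 3 were negative and 2 positive, from -0.14 to 0.08. Outside the 20, TTC (0.44) and TAC (0.15) also end in C and were called higher in KO. Medians were -0.05 for codons ending in G, -0.02 for those ending in T and 0.03 for those ending in A, with 0 called in each.

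The calls of GCC and GGC each depended on single libraries. GCC was lost without WT mouse 2 (adjusted p = 0.0946, edgeR), WT mouse 3 (0.117), KO mouse 2 (0.156) or KO mouse 3 (0.123), and GGC without WT mouse 1 (0.0795), KO mouse 1 (0.130) or KO mouse 2 (0.101). Without KO mouse 2, 0 of the 20 codons passed. With the Phe codons left out of the library size and the fit, GCC was at -0.11 and GGC at -0.13 (adjusted p = 0.0851 each, edgeR), and with mice 1 and 2 of each genotype as 1 sample the adjusted p was 0.176 and 0.195 (edgeR). DESeq2 (0.320 and 0.222) and limma on log2 shares (0.106 and 0.0563) called neither. TMM scaling lost GCC (0.0555) and thinning lost GGC (0.148).

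Within an amino acid, the balance of the codons was tested with the total of that amino acid in each library as the reference, in 1 edgeR fit of the 59 codons that have a synonym. No codon passed: 0 of 20, against 0% of all 59, and DESeq2 and limma also called 0 of the 59. At an unadjusted p under 0.05 there were 2 of 20 with edgeR (10%) against 8.47% of the 59, 2 with limma and 0 with DESeq2. KO and WT libraries did not overlap in 4 of 20 (20%) against 16.9%. The smallest adjusted p, for GCA, was 0.295 (edgeR).

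GCA made up 24.0%, 24.7% and 24.9% of alanine codons in WT and 26.1%, 27.1% and 25.6% in KO. All KO libraries were higher, and the log2 fold change of this share was 0.10 (SE 0.0351, unadjusted p = 0.00815). GGC made up 28.2%, 27.1% and 27.7% of glycine codons in WT and 25.4%, 26.1% and 27.3% in KO, where KO mouse 3 lay within the WT range (-0.08, SE 0.0338, unadjusted p = 0.0282, adjusted p = 0.462, edgeR). GCC made up 35.7%, 36.6% and 35.3% of alanine codons in WT and 36.0%, 34.4% and 33.6% in KO. KO mouse 1 lay within the WT range, and the log2 fold change was -0.05 (SE 0.0269, adjusted p = 0.462, edgeR). The falls of GCC and GGC in all sense codons were thus not told apart, by this test, from those of alanine and glycine codons together. CCA made up 30.1%, 30.1% and 28.8% of proline codons in WT and 30.1%, 31.0% and 31.5% in KO, the KO values being higher by a narrow margin. CCG made up 13.0%, 13.4% and 13.3% in WT and 12.5%, 12.3% and 12.8% in KO, all lower. ACT made up 23.5%, 23.9% and 23.2% of threonine codons in WT and 22.2%, 23.1% and 22.7% in KO, also all lower. These 3 had adjusted p from 0.462 to 0.554 (edgeR).

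Pooled over the 20 codons, those ending in A took 26.3%, 26.5% and 25.8% of the counts in WT and 27.2%, 27.5% and 26.5% in KO. All KO libraries were higher, KO mouse 3 only just above WT mouse 2, and the mean difference was 0.911 percentage points. Codons ending in G or C took 51.0%, 51.2% and 51.4% in WT and 50.4%, 50.4% and 50.5% in KO. Here the KO libraries were nearly equal and all lower, with a difference of -0.749 points. Each had an exact two-sided permutation p of 0.1, the smallest possible, and an adjusted p of 0.375 over the 30 such shares compared. Codons ending in C alone (30.5% ± 0.351 in WT, 29.9% ± 0.460 in KO, exact p = 0.3), in G (20.7% ± 0.506 and 20.5% ± 0.472, exact p = 0.5) and in T (22.6% ± 0.240 and 22.5% ± 0.509, exact p = 0.7) overlapped between genotypes (n = 3 each).

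By amino acid, codons ending in G or C were lower in all KO than in all WT libraries for glycine (51.7% ± 0.327 to 50.7% ± 0.574) and valine (71.3% ± 0.359 to 70.5% ± 0.467). For alanine (48.1% ± 0.809 to 47.1% ± 1.38) and proline (41.7% ± 0.133 to 41.2% ± 0.762) the means were lower with overlapping groups, and for threonine (46.1% ± 1.46 to 46.8% ± 1.31) the mean was higher. The exact permutation p for these 5 ran from 0.1 to 0.7 (n = 3 each).

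The other 41 sense codons ended in G or C in 63.2%, 63.6% and 63.5% of counts in WT and 63.1%, 63.8% and 63.2% in KO, with overlapping groups. The gap between the 20 codons and these 41 was -12.2 points on average in WT and -12.9 in KO. The gap was wider in each KO library than in each WT library, with a difference of -0.679 points (exact permutation p = 0.1, the smallest possible, adjusted p = 0.25 over 5 values). Against the 12 codons of the four-codon boxes of leucine, serine and arginine, which also end in any of the 4 bases, the gap was -12.2 ± 0.588 in WT and -12.7 ± 1.05 in KO, and the groups overlapped (exact permutation p = 0.6, n = 3 each). A difference in the third base particular to these 5 amino acids was not shown by these tests.

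Whether the mRNAs in ribosomes held fewer of these codons was examined in the ribosome-contained HiSeq libraries of the same mice. The codon content of each coding sequence (GENCODE M21) was weighted by the count of its transcript, over 8705 transcripts with 88.1% to 89.4% of the counts. The expected share of the 20 codons was 32.2% ± 0.0145 in WT and 32.2% ± 0.0165 in KO, a difference of -0.0192 percentage points (exact permutation p = 0.3, n = 3 each). For alanine the expected share was 8.05%, 8.06% and 8.06% in WT and 8.03%, 8.05% and 8.05% in KO, a difference of -0.0133 points (exact permutation p = 0.2). For glycine it was 7.23%, 7.23% and 7.23% in WT and 7.21%, 7.23% and 7.23% in KO, a difference of -0.00721 points (exact permutation p = 0.3). The A-site shares of these amino acids differed by -0.336 and -0.331 points.

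For GCC and GGC the expected differences were small beside those in the A site (-0.200 and -0.193 points). GCC had an expected share of 3.22% ± 0.00618 in WT and 3.21% ± 0.00783 in KO, a difference of -0.0154 points with no overlap (exact permutation p = 0.1, n = 3 each). GGC was at 2.75% ± 0.00487 and 2.74% ± 0.00702, with overlapping groups (exact permutation p = 0.2, n = 3 each). The expected share of codons ending in G or C among the 20 was 58.0% ± 0.0417 in WT and 57.9% ± 0.0748 in KO, with overlapping groups (exact permutation p = 0.2, n = 3 each). Expected shares for proline, lower in all KO libraries (difference -0.0161 points), and for valine, higher in all (0.0174 points), had the smallest possible exact p of 0.1, and for threonine the difference was 0.000122 points (exact p = 0.9).

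The ratio of the A-site share to the expected share describes how the 20 codons stood in each library. A ratio of 1 would mean that a codon is as frequent in the A site as in the messages. In WT it was 1.27 ± 0.0281 for proline, 1.02 ± 0.00576 for glycine, 0.929 ± 0.0123 for threonine, 0.879 ± 0.0129 for alanine and 0.828 ± 0.0185 for valine (n = 3 each), beside a median of 0.970 over the 61 sense codons and a range of 0.620 to 2.17. The WT libraries of neighbours in this order did not overlap. The codon ending in A had the highest ratio within its amino acid in 6 of 6 libraries for alanine, glycine, proline and threonine, and in 4 of 6 for valine. In WT the ratio was 1.57 ± 0.00823 for CCA, 1.48 ± 0.0224 for GGA, 1.14 ± 0.0333 for GCA, 1.13 ± 0.0481 for ACA and 0.953 ± 0.0237 for GTA (n = 3 each). GGC and GTG were the lowest of the 20, at 0.747 ± 0.0125 and 0.746 ± 0.0329.

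In KO the ratio was 0.679 ± 0.0265 for GGC, 0.730 ± 0.0297 for GCC and 0.825 ± 0.0333 for GTC, against 0.789 ± 0.0111 for GCC and 0.896 ± 0.00336 for GTC in WT. Each KO library lay below each WT library for these 3, and also for GGA (1.48 to 1.43) and CCG (1.18 to 1.12). For ACC (0.829 to 0.879) and CCA (1.57 to 1.64) all KO ratios were higher than all WT ratios. The exact permutation p was 0.1 for each of these 7 codons, the smallest possible (n = 3 each), and the groups overlapped for the other 13. Such a count of ratios was not made over all 61 sense codons. These are the same 7 codons whose A-site shares did not overlap between genotypes. That was 35% of the 20, against 26.2% of the 61. The ratios share the A-site counts of the tests above and are no separate support for them.

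The genes that charge these tRNAs were examined as a list of 7, made of the synthetases Aars, Gars, Eprs, Tars and Vars for alanine, glycine, proline, threonine and valine, of which the Eprs product also charges glutamate, and of Adat2 and Adat3, the subunits of the deaminase that makes the wobble inosine. In ribosome-contained mRNA 2 of the 7 could be tested, and 0 passed, against 0.211% of 4749 rows called. Gars was at 1079, 1065 and 1083 CPM in WT and 1088, 1091 and 1088 CPM in KO (log2 fold change 0.03, adjusted p = 0.924, edgeR), every KO library lying above every WT library by a small margin. Tars was at 127, 98.2 and 108 CPM in WT and 112, 120 and 98.9 CPM in KO (0.00, adjusted p = 0.997, edgeR). In total mRNA 5 of the 7 were tested and 0 passed, against 0.329% of 8206 rows, with log2 fold changes of -0.36 for Adat2 and 0.26 for Adat3 (adjusted p = 0.753 and 0.830, edgeR), 0.30 for Vars (0.864), 0.06 for Tars (0.937) and -0.04 for Gars (0.891). In both kinds of library, 0 had an unadjusted p under 0.05, and DESeq2 also called 0. Aars and Eprs, which have several transcript models, were below 1 CPM wherever listed. This does not bound their expression, since the counting of reads shared between models is not given in the sources used here.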

How the data were processed

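The authors deposited raw counts: footprints per A-site codon for 6 MiSeq libraries, and reads per RefSeq accession for 12 HiSeq libraries, whole numbers per the file headers and values. The submitters' processing notes name Bowtie2, HISAT2, HTSeq and mm10 with neither versions nor roles. The placing of the A site, strand use and the handling of multiply matching reads are not stated in the labels or files. Column names lack the instrument, so it was taken from the names of the tables. Sense codons were fitted with edgeR 4.0.16 (quasi-likelihood, robust; R 4.3.3), using their sum as library size, no TMM and no filter. The balance fit used the amino acid total as offset. HiSeq rows were fitted per library kind with TMM and the expression filter (minimum count 10, total 15). The adjusted p threshold was 0.05 (Benjamini-Hochberg). DESeq2 1.42.0 (mean dispersion trend for codons) and limma 3.58.1 were alternatives, as were leaving out each library, thinning to 48481 counts, a replicate block, TMM, stop codons included and Phe codons left out. Fits were tested on simulated data with changes larger than any seen among the 20 codons, so that test does not bear on changes of this size. Expected shares used coding sequences paired by RefSeq accession, without the start codon, since no protein table was used. Wilson intervals (95%) cover counting error only. Exact tests are two-sided. Codon members and lists were chosen with earlier results of these data known. All 20 codons are named. Values per library are given for those called, with an unadjusted p under 0.05 or groups that do not overlap, and for the most and least frequent codon of each amino acid.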

Additional observations from a re-analysis of the deposited data

How the results depend on the processing

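Of the 20 codons, 2 were called in the fit reported, 2 with the replicate block or with stop codons included, 1 with TMM or with counts thinned to the smallest library, and 0 with DESeq2, limma, the Phe codons left out or mice 1 and 2 summed (the last chosen after seeing the data); leaving out single libraries gave 0 to 2. Of the 5 amino acids, 2 were called in the fit reported and with the replicate block, 1 with TMM or stop codons included, and 0 with DESeq2, limma, thinning, the Phe codons left out or mice 1 and 2 summed; leaving out single libraries gave 0 to 3. Leaving out Phe removes 2 codons, or 1 amino acid, with very small p from the adjustment. It also raises all other shares, and more in KO, where Phe codons took 3.31% of sense codons, than in WT (2.47%). The log2 fold change moved from -0.118 to -0.106 for GCC and from 0.0543 to 0.0669 for threonine. Other causes were not tested. No balance call appeared under any alternative run. The same numbers in WT and KO mark different mice, and deviations of same-numbered libraries correlated at -0.0522, 0.157 and -0.0137. Libraries with different numbers correlated at -0.186 to 0.204, so these values cannot decide whether same-numbered libraries were paired. Under the block GCC was at -0.12 and GGC at -0.14 (adjusted p = 0.0137 each, edgeR). The pooled share of codons ending in A differed by 0.694 to 1.22 points and that of codons ending in G or C by -0.848 to -0.641 with single libraries left out. Signs turned with single libraries left out for codons ending in T (-0.449 to 0.0383), for those ending in G (-0.479 to 0.0764), for the gap to the boxes of Leu, Ser and Arg (-0.916 to 0.0646) and for the expected share of threonine (-0.00311 to 0.00236). Under the replicate block, 89 of 92 values kept their direction and side of the threshold and 3 turned sign. For the 30 third-base shares and the 5 other values compared by exact tests, this outcome was fixed in advance. The block leaves their differences unchanged, and an exact test on 3 pairs cannot give a p below 0.25.

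With single libraries left out, the share log2 fold changes of codons that were not called turned sign as well, running from -0.0953 to 0.00571 for GCG, -0.0494 to 0.0503 for GGT, -0.0599 to 0.00857 for CCT, -0.0341 to 0.0533 for CCC, -0.0267 to 0.0236 for ACT, -0.0201 to 0.1496 for ACG, -0.0498 to 0.0239 for GTT, -0.0677 to 0.0167 for GTA and -0.106 to 0.00376 for GTG. The balance ran from -0.0993 to 0.00189 for GCT, -0.0181 to 0.0633 for GCG, -0.00193 to 0.0410 for GGA, -0.0145 to 0.0346 for CCC, -0.0252 to 0.0478 for ACA, -0.0755 to 0.0861 for ACG and -0.0134 to 0.0310 for GTG. The total of proline ran from -0.0204 to 0.0192, and Tars from -0.0686 to 0.109 in ribosome-contained and -0.0308 to 0.143 in total mRNA. In percentage points, the differences ran from -0.137 to 0.525 for alanine codons ending in G, -0.0118 to 0.942 for glycine codons ending in A and -0.245 to 0.729 for proline codons ending in C. For threonine they ran from -0.0615 to 1.16 for C, -0.418 to 0.992 for A, -0.535 to 0.593 for G and -0.102 to 1.36 for G or C, and for valine codons ending in G from -0.433 to 0.915. For G or C among the other sense codons they ran from -0.282 to 0.0735, and in the boxes of Leu, Ser and Arg from -0.797 to 0.169.

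Values near 0 turned sign as follows, none of them called. The share log2 fold change of GGT was -0.00243 with the replicate block, -0.00194 with DESeq2, -0.00959 with limma and -0.0160 after thinning. That of CCC was -0.00238 with mice 1 and 2 summed, and that of ACT 0.000931 with limma, 0.00746 with TMM, 0.0107 without the Phe codons and 0.000569 with mice summed. The balance of ACG was -0.00154 with the replicate block, -0.00433 with limma and -0.0358 after thinning, and that of GTG -0.000320 after thinning. Proline was at -0.00668 with mice summed, and Tars in ribosome-contained mRNA at -0.00823 with no filter and -0.00195 with the block. After thinning, the share of codons ending in G differed by -0.283 points for threonine and -0.0329 for valine. From total mRNA, expected shares differed by 0.00531 (glycine), 0.00513 (proline) and 0.0241 points (20 codons), and for threonine by -0.00243 points in genes with 1 accession. The ratio of A-site to expected share in WT ran from 1.21 to 1.28 for proline and from 1.01 to 1.04 for glycine. Single codons had 265 to 1774 counts per library, and the smallest difference that could be detected was not tested.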
